A study of Mus musculus with 6 samples.

Results

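The Iroquois genes Irx1 to Irx6 are the 6 members of a family of homeobox transcription factor genes in the mouse, and they were taken by name from the 21883 protein-coding genes of the RefSeq annotation. They lie in a pair of clusters: Irx1, Irx2 and Irx4 on chromosome 13, and Irx3, Irx5 and Irx6 on chromosome 8. Every ATAC-seq peak within a gene's span or 50 kb of either end was assigned to that gene. Peaks of the 6 libraries that overlapped by at least 1 bp were merged, which gave 39 Iroquois regions of 156745 in the genome, 26 in the chromosome 13 cluster and 13 in the chromosome 8 cluster. No region fell into the windows of more than 1 member. The genes were picked with differences between the genotypes already known, so their values are given as descriptions without a test.

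Iroquois proteins bind DNA through a homeodomain of the TALE class, which carries a short loop of extra amino acids between its first helices, and the family patterns the heart, nervous system, limb and other organs. In the pancreatic islet, Irx1 and Irx2 are known as transcription factors of the glucagon-producing α-cell, while the insulin-producing β-cell depends on other factors such as Pdx1 and Nkx6-1. CHD4 is the helicase subunit of the NuRD complex, which moves nucleosomes and removes acetyl groups from histones.

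ATAC-seq uses the transposase Tn5 to cut accessible DNA, and peaks mark stretches with more cuts than their surroundings. The samples were 3 libraries labelled Control and 3 labelled Chd4KO, all of mature β-cells that were sorted for the fluorescent protein Tomato from the dispersed islets of mice given tamoxifen. The series text names the mutant mice Chd4Db, and tamoxifen is an agent that both groups share. The labels name no Cre driver, Chd4 allele or age, and they do not tie libraries to animals. Each library had its own peak list, so the spread between the 3 lists of a group, which may be technical, is the only measure of error.

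The Control lists held 100109 to 110693 peaks over 58.0 to 63.8 Mb, and the Chd4KO lists held 119088 to 124125 peaks over 65.8 to 69.1 Mb. The lists hold no read counts, so sequencing depth is unknown, and more called bases in the Chd4KO libraries cannot be told apart from deeper or cleaner libraries. Covered length, the number of bases under peaks, was therefore scaled so that every library had the same genome-wide total, and unscaled differences are given beside the scaled ones for the Iroquois genes. Libraries of the same genotype shared 0.785 to 0.825 of the regions called in either of a pair, and libraries of different genotype 0.626 to 0.647. The targeted gene Chd4 had a scaled covered length of 12566 ± 596 bp in Control and 12348 ± 529 bp in Chd4KO (SD, n = 3), a log2 difference of −0.02, or 0.14 unscaled, which says nothing of the deletion because peaks do not show whether an exon is lost. Within 1 kb of their spans all 10 β-cell marker genes had peaks in every library. Their summed scaled length was 21301 to 22294 bp in Control and 17383 to 18986 bp in Chd4KO. Ins1, Ins2, Iapp, Mafa and Nkx6-1 were lower in every Chd4KO library than in any Control library, G6pc2 was higher, and the others overlapped. The share of all genes separating in this way within 1 kb is not given here, for these or the other markers below. With 50 kb on each side, 27.2% of all genes were separate and lower and 13.3% separate and higher. With the scaling undone, the β-cell sums of the genotypes overlapped. The glucagon gene Gcg had no peak in any library, although 9 of the 10 α-cell markers outside the Iroquois family had one in all 6, with sums of 22696 to 25955 bp and 23308 to 26004 bp. Of the 5 acinar markers Cpa1, Ctrb1, Prss2 and Amy2a5 had none, and the sum was 0 to 262.7 bp in Control and 519 to 777 bp in Chd4KO. The mesenchyme markers Col1a1 and Pdgfrb summed to 1661 to 2032 bp and 3143 to 3273 bp, and the 6 δ-, γ- and ε-cell markers to 3741 to 4307 bp and 3257 to 3420 bp. Of those 6, Hhex was lower in every Chd4KO library than in any Control library, Rbp4 was higher, and none of the others separated the genotypes. With the scaling undone, the sums of these 6 overlapped. Duct, endothelial and blood marker sums overlapped between the genotypes, and the part of other cell types in the Iroquois values was not tested.

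The RefSeq promoter table (GRCm38.p6, the assembly that mm10 names) held windows from 250 bases before to 50 bases after a transcription start for 3 of the 6 members, Irx2, Irx3 and Irx4. They are shown because the Irx2 and Irx3 windows lay under regions with a large difference in peak strength between the genotypes, whereas the Irx4 window lay under no peak at all. Each is printed 5′ to 3′ on the strand of its gene, with every CG dinucleotide in capitals.
Irx2, chr13:72628570-72628869, plus strand: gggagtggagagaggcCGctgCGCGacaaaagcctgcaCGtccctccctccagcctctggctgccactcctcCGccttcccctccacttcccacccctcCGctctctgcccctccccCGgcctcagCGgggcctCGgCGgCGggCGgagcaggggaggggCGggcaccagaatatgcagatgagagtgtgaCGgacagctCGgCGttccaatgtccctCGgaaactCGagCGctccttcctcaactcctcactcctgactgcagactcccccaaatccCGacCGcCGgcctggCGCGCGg
Irx3, chr8:91801605-91801904, minus strand: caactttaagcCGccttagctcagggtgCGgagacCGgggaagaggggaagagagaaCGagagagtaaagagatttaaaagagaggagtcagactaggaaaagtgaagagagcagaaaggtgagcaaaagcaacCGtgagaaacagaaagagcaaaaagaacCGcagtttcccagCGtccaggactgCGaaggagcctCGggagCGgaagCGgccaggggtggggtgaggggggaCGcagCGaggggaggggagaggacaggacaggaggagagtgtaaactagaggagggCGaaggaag
Irx4, chr13:73260247-73260546, plus strand: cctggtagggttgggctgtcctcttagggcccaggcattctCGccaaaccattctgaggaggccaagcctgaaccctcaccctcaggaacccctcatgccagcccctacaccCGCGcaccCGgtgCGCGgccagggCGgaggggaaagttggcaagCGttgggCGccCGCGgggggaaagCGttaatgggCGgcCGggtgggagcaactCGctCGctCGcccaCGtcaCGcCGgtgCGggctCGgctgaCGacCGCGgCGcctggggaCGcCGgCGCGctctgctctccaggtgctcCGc
The Irx4 window held 31 CG dinucleotides and was 70.7% G or C, the Irx2 window 25 and 69.0%, and the Irx3 window 14 and 56.0%. The median over the 32851 promoter windows of the table was 7 CG dinucleotides and 52.7% G or C. Neither the TATA element TATAAA, found on either strand in 13.6% of all windows, nor the homeodomain core TAATTA, found in 5.29%, occurred in any of the 3.

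The order by CG content was not the order by peak coverage. All 300 bases of the Irx2 window were under a peak in each of the 6 libraries, as was the case for 32.1% of all promoter windows. In the Irx3 window 79, 67 and 29 bases were under peaks in Control 1, 2 and 3, and all 300 in each Chd4KO library. No base of the Irx4 window was under a peak in any library. Such bare windows made up 49.2% of all windows, but 2.91% of the 8701 windows with at least 20 CG dinucleotides. The transcription starts used for the Irx2 and Irx4 windows, at 72628820 and 73260497, lay inside the gene spans, and other starts were not examined. The region nearest to the Irx4 start used was 3057 bp away and called in Control 3 alone. The nearest called in all 6 libraries was 3436 bp away, inside the gene.

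Of the 39 Iroquois regions, 13 were called in all 6 libraries (33.3%, beside 48.0% of all regions). Another 6 were called in all 3 Chd4KO and no Control library, termed gained here (15.4%, beside 10.3% of all regions), and 3 in all 3 Control and no Chd4KO library, termed lost (7.69%, beside 2.62%). The other 17 had mixed patterns, and 5 of these, all on chromosome 13, rested on a single library. Gained regions lay in both clusters, 4 on chromosome 13 and 2 on chromosome 8, and none of the 6 was within 1 kb of an Iroquois span. The 3 lost regions all touched a span, of Irx1 or Irx2. In these bulk samples, more cells with an open region and more cuts per cell cannot be told apart. Since the genes were picked from these same lists, nothing is read from the counts beside their backgrounds. Regions were 205 to 1362 bp wide with a median of 390 bp, and the number called per library was 21, 26 and 20 in Control and 26, 30 and 27 in Chd4KO, which overlap at 26. Total bases under Iroquois peaks, unscaled, were 9872, 12009 and 9998 in Control and 13503, 13825 and 13404 in Chd4KO, with no overlap.

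**Figure D1:**
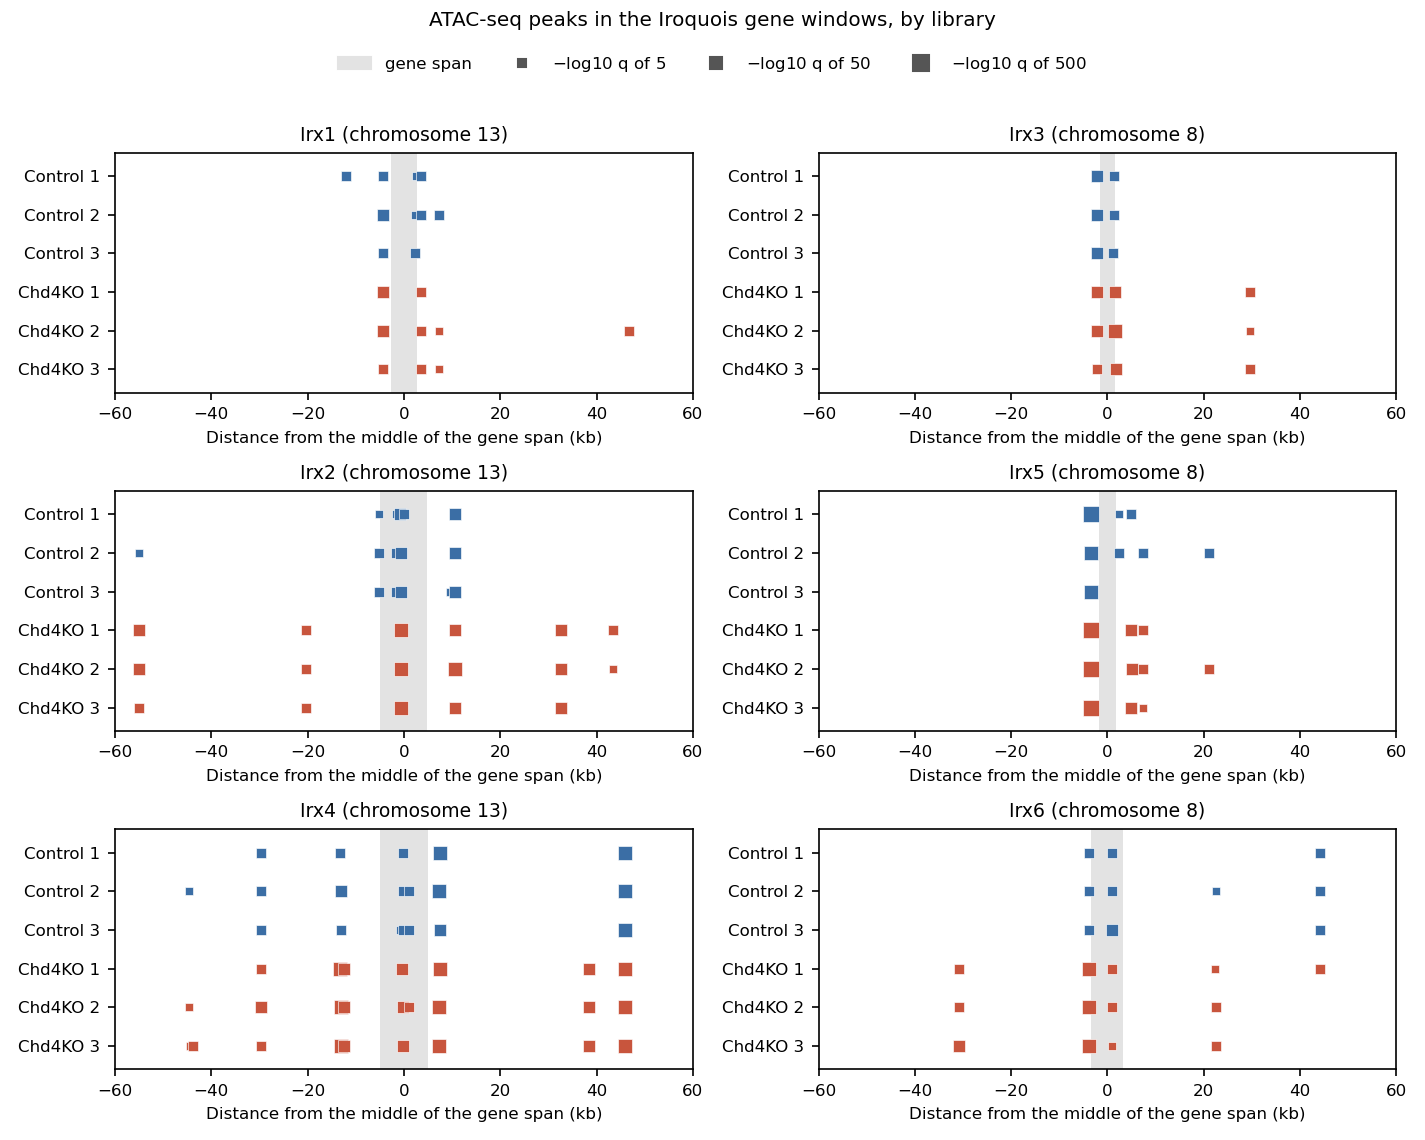
Position of every peak in the 6 gene windows (x axis, kb from the middle of the gene span, smaller coordinates to the left) in each library (y axis), with the marker size growing with −log10 q as in the key and the gene span in grey. Peaks at the lower edge of the grey Irx2 span and over the upper end of the Irx1 span are in Control rows only. Close beside the latter, 711 bp above the Irx1 span, lies a region that was also called in Chd4KO. Columns of 3 red squares with no blue one above them mark the gained regions at Irx2, Irx4, Irx3 and Irx6. Below the Irx4 span such a column lies close to a region with blue squares.

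Per gene, the covered length of the span plus 50 kb was fitted by limma over 19305 genes, and the difference of each Iroquois gene is given with its SE and no test. The median log2 difference of the 6, on the log2(scaled bp + 300) scale, was 0.26, beside −0.06 for all genes tested. Without scaling the median of all genes was 0.10 and that of the Iroquois genes 0.41. The 3 scaled values of Chd4KO all lay above those of Control at Irx3, Irx4, Irx5 and Irx6 and below them at Irx1 and Irx2. Such separation was seen at 13.3% (higher) and 27.2% (lower) of all genes.

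**Figure D2:**
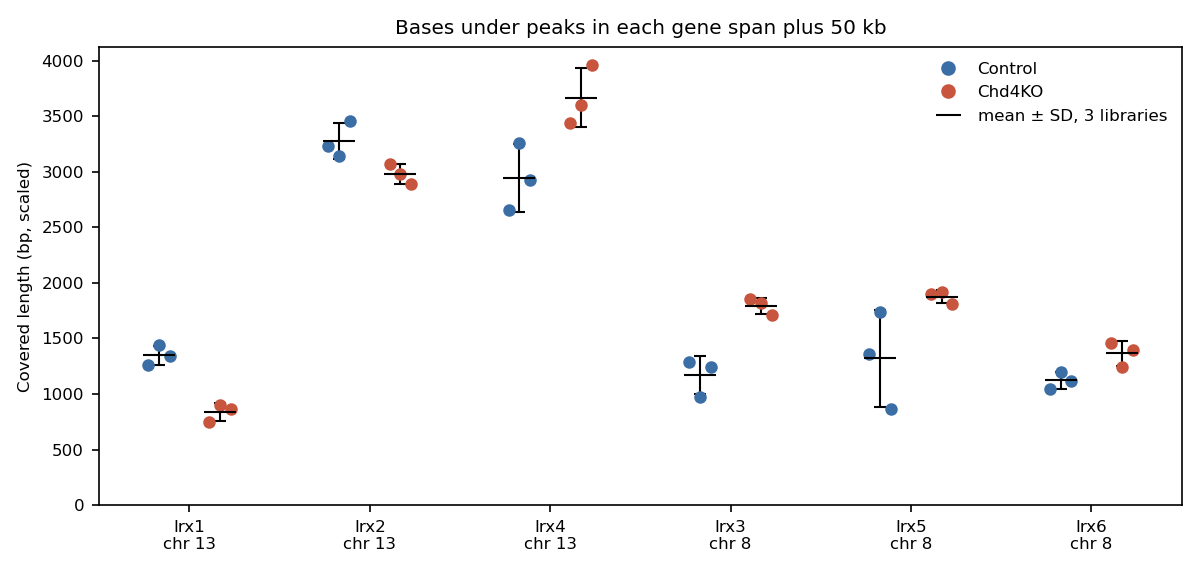
Scaled covered length in base pairs (y axis, from 0) in the span plus 50 kb of each Iroquois gene, 1 point per library, with bars for the mean and SD of 3 libraries. Chd4KO points lie below Control points at Irx1 and Irx2 and above them at Irx4, Irx3, Irx5 and Irx6, and the widest spread is among the Control libraries at Irx5.

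Irx1 (gene 16371, chr13:71958232-71963723), an α-cell factor in the islet that also acts in heart and lung development, had a scaled covered length of 1262, 1441 and 1338 bp in Control 1 to 3 and 750.2, 898.7 and 862.7 bp in Chd4KO 1 to 3. All Chd4KO values were below all Control values. The means were 1347 ± 89.7 bp and 837.2 ± 77.5 bp (SD, n = 3), a log2 difference of −0.54 ± 0.14 (SE). It was −0.40 without scaling, where the groups did not overlap either, and −0.36 with peaks of −log10 q of at least 5.

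The region with the most bases lost at Irx1 lay at the upper end of its span. There, the lost region chr13:71962809-71963768 had 392, 461 and 935 bp under peaks in the Control libraries and none in Chd4KO. These were weak peaks, with −log10 q values of 4.59, 3.82 and 7.84, at percentiles 3.54, 2.72 and 12.1 of their own lists. The next region, chr13:71964434-71964730, 711 bp above the span, had 264, 217 and 0 bp in Control and 289, 209 and 266 bp in Chd4KO. It was thus missed only in Control 3, where the lost region was widest, and the groups overlapped. On the other side, 1309 bp below the span, chr13:71956310-71956923 was called in all 6 libraries, with 283, 436 and 286 bp in Control and 505, 325 and 375 bp in Chd4KO. Its groups overlapped in width and in strength. Of the remaining 3 regions at Irx1, 1 was called in Control 1 alone, 1 in Chd4KO 2 alone, and chr13:71968073-71968401 in Control 2, Chd4KO 2 and Chd4KO 3.

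Irx2 (gene 16372, chr13:72624430-72634196), the other α-cell factor, combined peaks that were absent and a peak that was stronger in Chd4KO. Its scaled covered length was 3236, 3140 and 3456 bp in Control and 3073, 2983 and 2890 bp in Chd4KO. The Chd4KO values were all lower, but by little: 3277 ± 162 bp against 2982 ± 91.2 bp (SD, n = 3), a log2 difference of −0.12 ± 0.09 (SE). The direction turned without scaling (0.03), where the groups overlapped, with 100 kb on each side (0.29) and with the 50000 strongest peaks of each list (0.27), and with 10 kb on each side the difference was −0.51.

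A pair of lost regions lay at and above the lower end of the Irx2 span, where the long noncoding RNA gene Gm20554 is also annotated. At that end, chr13:72623987-72624443 lay mostly outside the span, and only the Control 2 peak reached into it. It had 215, 453 and 282 bp under Control peaks, with −log10 q values of 4.89, 16.0 and 11.8. Further in, chr13:72627442-72627723 had 242, 256 and 200 bp, with −log10 q values of 5.83, 8.36 and 7.84. No Chd4KO library had a peak at either place. The latter ended shortly before the region that covers the printed Irx2 promoter, so peaks absent from Chd4KO and a peak stronger in Chd4KO were neighbours.

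That promoter region, chr13:72628062-72629423, was called in all 6 libraries and was the widest of the 39. It had 1198, 1207 and 1254 bp under peaks in Control and 1235, 1185 and 1188 bp in Chd4KO, so the groups overlapped in width. In Control 1 these bases came from separate peaks of 850 and 348 bp. After scaling the width was lower in every Chd4KO library, at 1316, 1205 and 1374 bp against 1167, 1092 and 1150 bp. In strength the groups did not overlap: −log10 q was 48.0, 34.0 and 63.8 in Control and 345, 351 and 294 in Chd4KO. The authors' fold enrichment at the summit was 7.15, 5.66 and 7.50 against 16.8, 15.9 and 15.1. The summit lay 141, 153 and 193 bp before the transcription start in Control, and 110 bp before it in each Chd4KO library.

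Because −log10 q grows with depth, each value was also ranked within its library among the 75312 regions called in all 6 libraries. The rank is given as a percentile, with tied regions sharing their average rank. The Irx2 promoter region stood at percentiles 42.2, 28.4 and 50.1 in Control and 81.6, 82.2 and 81.4 in Chd4KO. The mean difference was 41.5 percentile points, and 2.48% of the 75312 regions had a larger one in the same direction. A further region called in all 6, chr13:72639192-72640486, 4996 bp above the span, was narrower in each Chd4KO library, with 1290, 1228 and 1212 bp in Control and 1102, 1175 and 1147 bp in Chd4KO. Its percentiles overlapped, at 54.36 ± 3.69 and 51.33 ± 3.51 (SD, n = 3).

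The gained regions at Irx2 were distal. One, chr13:72608745-72609048, lay 15382 bp below the span, with 274, 287 and 291 bp under the 3 Chd4KO peaks and −log10 q values of 14.1, 21.4 and 23.3. Its 3 summits fell within 6 bp of each other. The other, chr13:72661696-72662059, lay 27500 bp above the span, with 351, 332 and 359 bp and −log10 q values of 43.1, 38.6 and 37.0, near the middle of their lists at percentiles 48.4, 44.9 and 46.7. At the outer edge of the window, 49999 bp below the span, chr13:72574074-72574431 was called in Control 2 and all 3 Chd4KO libraries, and the nearest region outside lay at 58838 bp. The last pair at Irx2 was called in Control 3 alone and in Chd4KO 1 and 2.

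Irx4 (gene 50916, chr13:73259589-73269622), a factor of the heart ventricle, had the most regions, 11. Its scaled covered length was 2653, 3264 and 2928 bp in Control and 3444, 3599 and 3965 bp in Chd4KO. The groups did not overlap, with means of 2948 ± 306 bp and 3669 ± 267 bp (SD, n = 3) and a log2 difference of 0.29 ± 0.10 (SE). It was 0.45 without scaling, 0.62 with the 50000 strongest peaks and 0.13 with 100 kb on each side.

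The clearest difference at Irx4 was a group of peaks some kilobases below the span. Region chr13:73251097-73251652, 7937 bp below, had 372, 353 and 339 bp under peaks in Control and 556, 446 and 441 bp in Chd4KO. Its −log10 q was 21.5, 29.6 and 21.7 against 273, 248 and 189, and the fold enrichment 6.41, 8.17 and 6.77 against 22.7, 23.8 and 18.4. All 3 measures were separate between the genotypes. The percentiles were 21.0, 24.4 and 20.2 in Control and 76.6, 73.8 and 70.9 in Chd4KO, a difference of 51.9 points that 1.01% of regions exceeded. Beside it, the gained region chr13:73252072-73252423 had 331, 341 and 347 bp and −log10 q values of 90.5, 81.2 and 67.4. These were the strongest peaks of any gained Iroquois region, at percentiles 65.1, 61.8 and 60.5 of their lists.

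Within the Irx4 span, chr13:73263933-73264686 had 526, 446 and 205 bp in Control and 735, 611 and 595 bp in Chd4KO, with −log10 q of 6.77, 13.0 and 9.37 against 45.0, 61.6 and 37.0. Its percentiles were 2.81, 7.50 and 4.93 in Control and 28.1, 34.9 and 27.3 in Chd4KO. Both measures were higher in every Chd4KO library, but scaled widths overlapped, at 577.9 bp in Control 1 and 563.2 bp in Chd4KO 2. Region chr13:73271460-73272311, 1838 bp above the span, overlapped in width but not in percentile, at 64.79 ± 2.87 and 73.02 ± 2.92 (SD, n = 3). The strong region chr13:73310099-73310939, 40477 bp above, had percentiles of 76.16 ± 0.595 and 76.39 ± 1.07, so peaks of similar rank in both genotypes also occurred in the cluster. The gained region chr13:73302845-73303220 lay 33223 bp above the span, with 318, 302 and 373 bp and −log10 q values of 44.2, 41.7 and 42.9. Of the other regions at Irx4, chr13:73234718-73235107 was called in all 6 libraries with overlapping groups, and 4 had mixed patterns. In the span these were chr13:73263554-73263881, with 328 bp in Control 3 alone, and chr13:73265431-73265850, with 396 and 311 bp in Control 2 and 3 and 200 bp in Chd4KO 2.

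**Figure D3:**
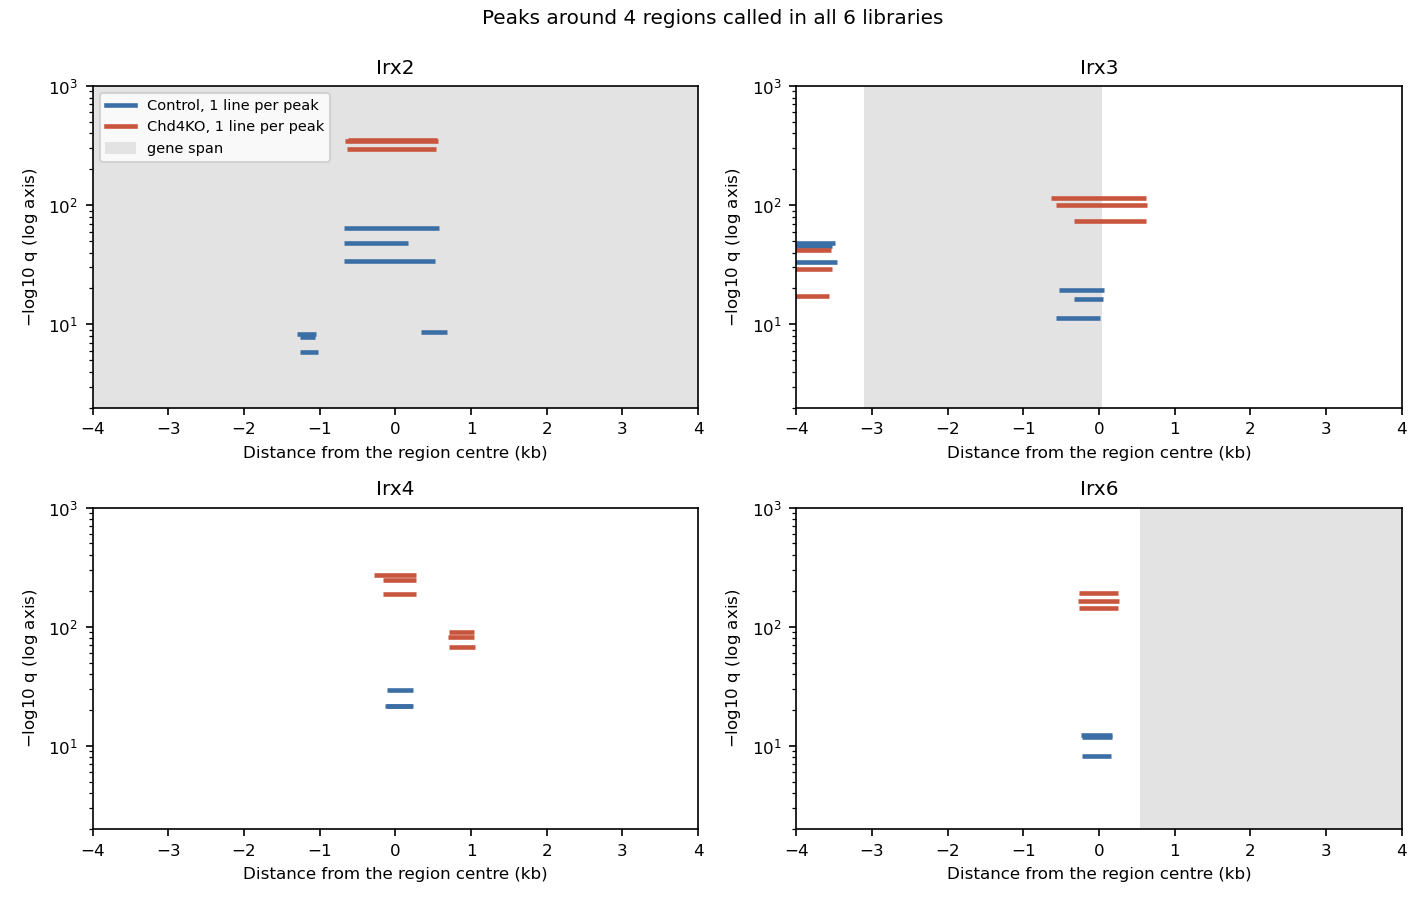
Peaks within 4 kb of the centre of 4 regions called in all 6 libraries (x axis, distance in kb), each drawn as a line over its width at the height of its −log10 q (y axis, log scale), with Control in blue, Chd4KO in red and the gene span in grey. At Irx2 the 3 red lines at 294 to 351 stand over blue lines at 34.0 to 63.8, and the blue lines near −1 kb are 1 of the lost regions. The Control 2 and Control 3 lines are of similar width to the red ones. Control 1 has a line of 850 bp and a separate one of 348 bp at 8.63. At Irx3 the red lines also reach further past the end of the span.

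Irx3 (gene 16373, chr8:91798511-91801654), known for its contacts with the introns of Fto in work on body weight, had the fewest regions, 3. Its scaled covered length was 1292, 975.7 and 1246 bp in Control and 1852, 1817 and 1710 bp in Chd4KO. All Chd4KO values were higher, with means of 1171 ± 171 bp and 1793 ± 73.9 bp (SD, n = 3) and a log2 difference of 0.51 ± 0.14 (SE). It was 0.66 without scaling, 0.33 with 10 kb on each side and 1.22 with the 50000 strongest peaks.

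The widest gain in covered bases at Irx3 lay over its promoter. Region chr8:91800988-91802247 lay over the upper end of the span, where transcription starts, and had 589, 384 and 589 bp under peaks in Control and 1198, 1258 and 953 bp in Chd4KO. The Control peaks reached only the last bases of the printed Irx3 sequence, at its 3′ end, whereas the Chd4KO peaks ran through all of it. Its −log10 q was 19.3, 16.2 and 11.2 in Control and 100.4, 114 and 74.2 in Chd4KO, and the fold enrichment 4.93, 4.82 and 3.90 against 9.89, 10.4 and 8.80. The percentiles of 18.6, 11.0 and 7.61 in Control were all below the 50.4, 52.4 and 45.8 of Chd4KO, a difference of 37.1 points that 3.45% of regions exceeded.

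Beyond the opposite end of Irx3 the difference went the other way. Region chr8:91797543-91798161 lay 350 bp beyond the 3′ end, over the noncoding RNA gene Gm39222. It had 587, 593 and 548 bp in Control and 517, 508 and 478 bp in Chd4KO. Its percentiles were 42.2, 27.6 and 39.9 in Control and 26.7, 16.9 and 11.4 in Chd4KO. Both measures were lower in every Chd4KO library, and it was the 1 Iroquois region of the 13 called in all 6 whose percentiles were separate and lower. The gained region chr8:91829563-91829897, over the antisense gene Irx3os, was weak, with 245, 205 and 335 bp and −log10 q values of 6.89, 6.16 and 9.54.

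Irx5 (gene 54352, chr8:92357796-92361456), a factor of cardiac repolarization and of retinal bipolar cells, held the strongest Iroquois peaks by −log10 q. Its scaled covered length was 1359, 1740 and 869.2 bp in Control and 1903, 1916 and 1814 bp in Chd4KO. The groups did not overlap, but the Control libraries spread widely, with means of 1323 ± 436 bp and 1878 ± 55.3 bp (SD, n = 3) and a log2 difference of 0.46 ± 0.18 (SE). It was 0.60 without scaling, 0.72 with 100 kb on each side and 0.10 with the 50000 strongest peaks. Without Control 3, the lowest Control library, it was 0.24.

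The strong Irx5 region, chr8:92355670-92356592, lay 1204 bp below the span over the noncoding RNA gene Crnde. It had 828, 841 and 793 bp under peaks in Control and 896, 903 and 923 bp in Chd4KO, with −log10 q of 460.3, 310.4 and 347 against 782, 755 and 521. The percentiles were 89.4, 85.7 and 86.5 in Control and 95.4, 96.1 and 91.9 in Chd4KO. All 3 measures were higher in each Chd4KO library, though the groups overlapped in scaled width and when regions were ranked by fold enrichment. The regions that differed among Control libraries lay on the other side of the gene. Region chr8:92364229-92364934, 2773 bp above the span, had 209 bp in Control 1, none in Control 2 and 3, and 655, 488 and 528 bp in Chd4KO. Region chr8:92366791-92367253 had 413 bp in Control 2, none in Control 1 and 3, and 463, 463 and 423 bp in Chd4KO. Each was thus called in all Chd4KO libraries and in a different single Control library. Just above the span, chr8:92361979-92362211 had 200 and 233 bp in Control 1 and 2 and none in the other libraries, and the last region was called in Control 2 and Chd4KO 2.

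Irx6 (gene 64379, chr8:92674289-92680956), a factor of retinal bipolar cells, had a scaled covered length of 1044, 1201 and 1121 bp in Control and 1463, 1242 and 1395 bp in Chd4KO. The Chd4KO values were higher, the lowest of them by little, with means of 1122 ± 78.8 bp and 1367 ± 113 bp (SD, n = 3) and a log2 difference of 0.23 ± 0.14 (SE). It was 0.36 without scaling and 0.51 with 100 kb on each side, and the direction turned with 10 kb (−0.09).

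The region with the largest difference in rank among the 13 lay 274 bp below the Irx6 span. There, chr8:92673472-92674015 had 397, 384 and 410 bp under peaks in Control and 515, 544 and 515 bp in Chd4KO. Its −log10 q was 11.8, 8.23 and 12.4 in Control and 193, 165 and 142 in Chd4KO, and the fold enrichment 4.70, 4.17 and 5.04 against 22.9, 21.2 and 17.6. In Control the peak ranked among the weakest of the regions shared by all libraries, at percentiles 9.46, 2.70 and 9.08, and in Chd4KO above the middle, at 68.3, 62.9 and 63.5. The difference was 57.8 points, which 0.575% of regions exceeded. Inside the span, chr8:92678339-92678750 had 303, 376 and 368 bp in Control and 319, 212 and 210 bp in Chd4KO, and the groups overlapped. The gained region chr8:92646664-92646977, 27312 bp below, had 293, 207 and 311 bp and −log10 q values of 11.8, 6.78 and 29.5. Region chr8:92721620-92721880 was called in all Control libraries and in Chd4KO 1, and the remaining region in Control 2 and all 3 Chd4KO libraries.

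Over the 13 Iroquois regions called in all 6 libraries, the percentile of −log10 q was separate and higher in Chd4KO at 7 (beside 22.7% of the 75312 regions) and separate and lower at 1 (beside 29.7%). Every gene except Irx1 held at least 1 of the 7. By fold enrichment the counts were 6 and 1. Not all 7 rises in percentile were large: 8.04% of the 75312 regions rose more than the one within the Irx4 span. That share was 23.5% for the region 1838 bp above Irx4 and 25.0% for the region over Crnde below Irx5. The difference at the lower region, beyond Irx3, was −18.2 points, and 10.9% of regions fell further. Bases under peaks, unscaled, were separate and higher at 5 (beside 18.8%) and lower at 2 (beside 14.0%). After scaling they were separate and higher at 3 (in Irx4, Irx3 and Irx6) and lower at 5. No share over all regions is given for scaled bases or for fold enrichment, so those counts stand without a background. At the 3 regions within 1 kb of a gene end, at Irx3 and Irx6, the percentile was higher at 2 and lower at 1 (beside 13.6% and 37.3% of the 14323 such regions). The strength of a peak and its width were thus different measures here: the Irx2 promoter region was stronger in Chd4KO but not wider.

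**Figure D4:**
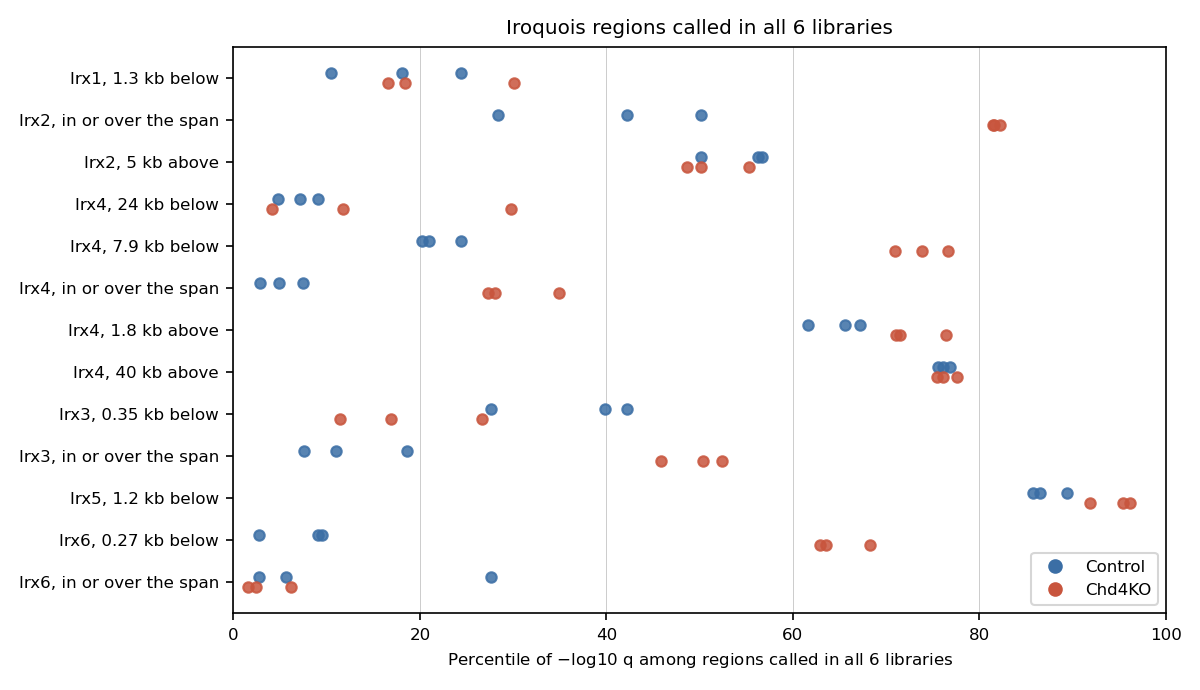
Percentile of −log10 q (x axis, 0 to 100) within each library among the 75312 regions called in all 6 libraries, for the 13 Iroquois regions (y axis, by gene and distance from its span), 1 point per library, Control in blue and Chd4KO in red. Red points lie to the right of all blue points at 7 regions, farthest at Irx6, Irx4, Irx2 and Irx3, and to the left at the region below Irx3.

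Other TALE homeobox genes gave a view of the wider class. Of 11 tested, from the Meis, Pbx, Pknox, Tgif and Mkx families, 2 were called higher in scaled covered length and none lower. The other 9 were not called by limma at a Benjamini-Hochberg adjusted p under 0.05. Among all genes 7.70% were called higher and 12.7% lower, or 18.5% and 1.25% unscaled. The median log2 difference was 0.04, or 0.20 unscaled. Pknox2, which encodes a partner of other homeodomain proteins, had 16726, 15096 and 15397 bp in Control and 19208, 19207 and 20225 bp in Chd4KO, a log2 difference of 0.31 ± 0.06 (SE, limma adjusted p = 0.0059). The tendon factor gene Mkx had 2988, 3359 and 2962 bp in Control and 3946, 3639 and 4435 bp in Chd4KO, a log2 difference of 0.34 ± 0.10 (SE, limma adjusted p = 0.034). Both genes had higher values in every Chd4KO library than in any Control library. Such separation was seen at 3 of the 11 in the higher direction (beside 13.3% of all genes), with Pbx2 the third. It was seen at 1 in the lower direction (beside 27.2%), Pbx3, with a log2 difference of −0.23 ± 0.09 (SE, limma adjusted p = 0.082). The Mkx call was lost without Control 1 (0.31), Control 3 (0.31), Chd4KO 1 (0.35) or Chd4KO 3 (0.27), and with no filter (0.34), 10 kb on each side (0.28) or the 50000 strongest peaks (0.34). Without scaling, Meis3 (0.20) and Pbx2 (0.33) were also called higher.

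Around the clusters, 19 other protein-coding genes lay within 500 kb of the first or last member. Of these, limma called 1 higher (beside 7.70% of all genes) and 1 lower (beside 12.7%). Scaled values were separate and higher in Chd4KO at 4 (beside 13.3%) and separate and lower at 3 (beside 27.2%). Ces1d, a carboxylesterase gene beyond Irx6, rose by 0.41 ± 0.10 on the log2 scale (SE, limma adjusted p = 0.016), with 2656, 2725 and 2329 bp in Control and 3640, 3627 and 3288 bp in Chd4KO. Tert, the telomerase gene beyond Irx4, fell by 0.25 ± 0.08 on the log2 scale (SE, limma adjusted p = 0.044), with 4326, 4340 and 4618 bp in Control and 3817, 3619 and 3588 bp in Chd4KO, and the groups did not overlap. The Tert call was lost without any 1 of the 6 libraries (−0.22 to −0.28), without scaling (−0.09), with no filter (−0.25), and with 10 kb (−0.18) or 100 kb (−0.01) on each side. The Ces1d call was lost without Control 3 (0.35) or Chd4KO 1 (0.39) and with the 50000 strongest peaks (0.05). Without scaling 3 neighbours were called higher (beside 18.5% of all genes) and none lower (beside 1.25%). The 3 were Ces1d (0.57) and the transporter genes Slc6a19 (0.29) and Slc12a7 (0.32). Fto, next to Irx3, had a log2 difference of −0.15 ± 0.14 (SE, limma adjusted p = 0.46), and 0.02 without scaling. Ndufs6 and Mrpl36 share regions with Irx4 and were not called.

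The genes on other chromosomes whose 6 covered lengths came closest to those of a member were also picked by a set rule, the smallest root mean square difference in log2(scaled bp + 300) over the 6 libraries. They were Olfr554 (0.13) and Gm38656 (0.14) for Irx1, Ier3ip1 and Bcas2 (both 0.04) for Irx2, and Rnf152 (0.06) and Mtm1 (0.08) for Irx4, of 18563 genes compared. For the chromosome 8 members they were Adamts10 (0.06) and H1f7 (0.09) for Irx3, Mpped1 (0.15) and Hoxc9 (0.16) for Irx5, and Olfr410 and Olfr1440 (both 0.10) for Irx6, of 18330.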

How the data were processed

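Per the deposited files, each library had its own narrow peak list, and the peak names mention MACS2 and shifted cutting sites; its settings and the aligner are not stated in these sources. The submitters' processing notes give mm10. For each peak the authors deposited a score, a ratio (summit fold enrichment), and the −log10 of its p-value and of its q-value, here used only to describe and rank peaks of 1 list. Score and −log10 p were not analysed further.

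Peaks were merged at 1 bp of overlap. A library's value for a region was the bases under its peaks and the −log10 q of its strongest peak. Covered length per gene (span plus 50 kb, RefSeq GRCm38.p6) was scaled to the mean total, log2-transformed after adding 300 bp, and compared two-sided by limma 3.58.1 (R 4.3.3) with a mean trend over 19305 genes of at least 300 bp mean unscaled covered length, at a Benjamini-Hochberg adjusted p under 0.05. No sample was dropped or imputed. P-values measure the spread between these libraries, which may be technical.

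Members and lists were chosen with earlier results of these data known. Described in full are regions over or within 1 kb of a span, those in all 3 libraries of 1 genotype only, and each member's strongest and widest. The TALE genes, the neighbours within 500 kb and the 2 closest genes per member followed set rules. One gene of the TALE list is not reported here. The percentile measure was added after seeing the data.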

Additional observations from a re-analysis of the deposited data

How the results depend on the processing

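Without scaling, 3571 genes were higher and 241 lower, Irx2 turned to 0.03 and Fto to 0.02. Without the filter on low values 944 genes were higher and 1365 lower. With 10 kb on each side Irx6 turned to −0.09, Meis3 to −0.01, Pbx2 to −0.19 and Slc6a19 to −0.06. Of 24 regions in these windows 1 was gained (beside 10.3% of all regions). With 100 kb Irx2 turned to 0.29, and 13 of 68 regions were gained (beside 10.3%). Of the 27 called in all 6 libraries, 10 were higher and 5 lower in covered bases and 14 higher and 6 lower in percentile. With the 50000 strongest peaks Irx1 and Irx6 were below the filter, Irx2 turned to 0.27 and Tert to 0.05. Of 10 regions 0 were lost (beside 6.70%), and for the 4 called in all 6 libraries those counts were 1, 1, 2 and 0. With −log10 q of at least 5, 1 of 37 regions was lost (beside 2.55%). Requiring a peak over 50% of a region gave 1 lost region of 39 (beside 3.13%). Of the 9 then called in all 6 libraries, 3 were higher in covered bases, and 4 were higher and 0 lower in percentile. Scaled bases gave 3 higher and 5 lower of 13. No share over all regions is given for the higher and lower counts under these settings. The causes were not tested.

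Leaving out each library in turn gave 852 to 1601 genes higher and 810 to 2349 lower. Of 37 to 39 regions, 6 to 9 were gained (beside 11.1% to 13.1% of all regions) and 3 to 4 lost (beside 3.18% to 3.99%). Of the 13 or 14 called in every library kept, 5 to 7 were higher and 2 to 4 lower in covered bases. In percentile, 7 to 8 were higher and 1 to 2 lower. Genes called higher were fewest without Control 3 (852) and Chd4KO 1 (870), and genes called lower without Control 3 (810), Control 1 (1019) and Chd4KO 1 (1294). Every Iroquois gene kept its sign. Fto ranged from −0.30 to 0.00.

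Libraries with the same number did not deviate together (r = 0.13, 0.04 and −0.10 over genes), and 3 of 6 correlated best with their own number. With the replicate number as a block, 1499 genes were higher and 2278 lower, and Tert (−0.25) was no longer called. Depth is unknown, so a peak missing from a list does not by itself mean closed chromatin.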

Other observations

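Between the windows, still inside the clusters, the chromosome 13 interval from Irx1 to Irx4 held 63 further regions, of which 33 were called in all 6 libraries, 7 (11.1%) were gained and 1 (1.59%) was lost. The chromosome 8 interval from Irx3 to Irx6 held 17, of which 6 were called in all 6, 4 (23.5%) were gained and 0 were lost. The gained and lost shares over all regions were 10.3% and 2.62%. Just outside the windows, the nearest region to Irx4, at 56682 bp, was called in all 3 Chd4KO and no Control library, and those nearest to Irx1 (65617 bp), Irx5 (53814 bp) and Irx6 (55679 bp) were called in all 6.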
